A study of Haemaphysalis flava with 2 samples.

Results

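Da-p36-related contigs are assembled transcripts of the hard tick Haemaphysalis flava whose best-matching protein is named after Da-p36 or called immunosuppressive. They were chosen by the name of that protein alone: a contig was kept when the name contained da-p36, p36 or immunosuppress. This kept 47 of 54357 contigs. One of them, contig_17, matches the lectin VIP36, an unrelated protein with p36 inside a longer name, so 46 contigs carry a Da-p36-type name. The label rests on the names of best-matching proteins, since suppression of immune cells was not measured here. RNA came from salivary glands of engorged ticks and of semi-engorged ticks, with no treatment named for either stage. The series text counts 50 ticks per stage, and each stage is represented by 1 library, written ET for engorged and SET for semi-engorged as in the labels. Each library was therefore treated as 1 pool with no replicate. No p-value or standard error across contigs was computed, and intervals cover counting error only.

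Hard ticks feed for days and secrete saliva whose proteins blunt clotting, inflammation and immunity in the host skin. Da-p36 is known from the salivary glands of Dermacentor andersoni, where it reduces the proliferation of host T lymphocytes. HL-p36 of Haemaphysalis longicornis has been linked to reduced lymphocyte proliferation too, and Av-p36 of Amblyomma variegatum is known as a related sequence. Below, Av-p36 stands for the best match named Protein related to Da-p36, of Amblyomma variegatum. HL-p36 and Da-p36 stand for those named Immunosuppressant protein p36, of Haemaphysalis longicornis and of Dermacentor andersoni. The salivary gland enlarges while the tick feeds and degenerates after engorgement.

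ET held 57892372 reads on contigs and SET 54039984. Levels are given as CPM (reads per 1000000 in that library) or as RPKM, which also divides by contig length and is the scale on which contigs are compared with each other. Contigs with salivary gland names (lipocalins, histamine-binding, cement, glycine-rich and salivary proteins) summed to 14789 CPM in ET and 35854 CPM in SET. Histamine-binding alone among these names had a higher sum in ET, at 105 CPM in ET and 12.2 CPM in SET. Of 352 such contigs past the read filter described below, 68 were at least 2-fold higher in ET and 167 lower. Over all contigs past that filter 13.0% were higher and 15.5% lower, the background for the counts that follow too. Muscle markers summed to 543 CPM in ET and 496 CPM in SET, with 8 of 33 contigs at least 2-fold higher in ET and 7 lower. Myosin heavy chain gave most of this sum, at 495 CPM in ET and 333 CPM in SET, and the other 4 muscle names had lower sums in ET. Paramyosin had 41.9 CPM in ET and 126 in SET, and troponin 0.708 CPM in ET and 21.0 in SET. Tropomyosin had 3.82 CPM in ET and 11.5 in SET, and titin 2.16 CPM in ET and 4.50 in SET. Nerve markers summed to 615 CPM in ET and 881 CPM in SET, with 0 of 7 higher and 2 lower. Synaptotagmin gave most of this sum, at 605 CPM in ET and 874 CPM in SET. The other nerve names with contigs had slightly higher sums in ET. Allatostatin had 9.48 CPM in ET and 6.25 in SET, and neuropeptide 0.846 CPM in ET and 0.759 in SET. Haemocyte and fat body markers summed to 2067 CPM in ET and 2053 CPM in SET, with 3 of 29 higher and 0 lower. Midgut and cuticle markers summed to 153 CPM in ET and 412 CPM in SET, with 1 of 30 higher and 10 lower. Cuticle had 27.1 CPM in ET and 139 in SET, and chitin 124 CPM in ET and 272 in SET. Going the other way, peritrophin had 1.81 CPM in ET and 1.54 in SET, and cathepsin D 0.259 CPM in ET and 0 in SET. Host blood markers summed to 49.6 CPM in ET and 30.8 CPM in SET, with 3 of 6 higher and 0 lower. Haemoglobin had 29.6 CPM in ET and 5.81 in SET, and serum albumin 1.43 CPM in ET and 0.0740 in SET. Immunoglobulin had a lower sum in ET, at 18.6 CPM in ET and 24.9 in SET. No contig was named synapsin, hemocytin or prophenoloxidase. The part of other tissues in the differences below was not tested. In whole glands, fewer cells of a type and less RNA per cell cannot be told apart.

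Summed over all 47 contigs, Da-p36-related reads were lower in ET. They numbered 82041 in ET and 109931 in SET, or 1417 CPM in ET and 2034 CPM in SET, a ratio of 0.697 (exact Clopper-Pearson 95% interval 0.690 to 0.703). As a share this was 0.142% in ET (Wilson 95% interval 0.141% to 0.143%) and 0.203% in SET (0.202% to 0.205%). Without the lectin, the 46 contigs held 68224 reads in ET and 99601 in SET, a ratio of 0.639 (0.633 to 0.646). Their RPKM values summed to 1534 in ET and 2683 in SET. The size of this ratio rested on single contigs. Without contig_1468 the ratio over the other 45 contigs was 0.265, and without contig_5617 it was 0.863.

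Behind this modest difference in the sum, most single contigs differed widely, and in both directions. All 47 contigs had at least 20 reads over both libraries, the filter used for all contigs. The log2 fold compares ET with SET after 1 CPM is added to each, and a contig was called at 1 or more in either direction. Of the 46 Da-p36-type contigs, 13 were higher in ET, where 13.0% of the 47965 contigs past the filter were, and 28 were lower, where 15.5% of all were. The remaining 5 were in neither class, which held 71.5% of all contigs. The median log2 fold was -1.47 over the 46 contigs and -0.049 over all contigs. With counts of 0 set to a floor of 3 reads per library and no added 1, the median was -3.59 over the 47 contigs and -0.099 over all. At a log2 fold of 3 or more, 6 of the 46 were higher in ET (1.39% of all contigs) and 16 were lower (3.46% of all).

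**Figure D1:**
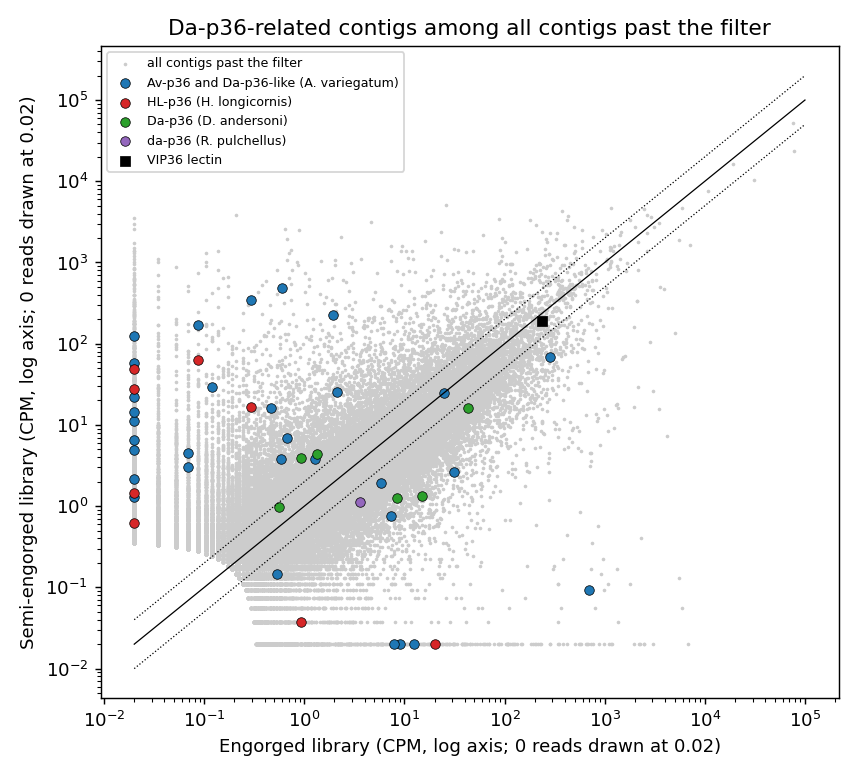
Each point is 1 contig, with its CPM in ET on the x axis and in SET on the y axis, both on log axes. Coloured points are the Da-p36-related contigs by best match, the black square is the VIP36 lectin, and grey points are all contigs past the filter. The solid line marks equal levels and the dotted lines a ratio of 2. Of the 46 coloured contigs, 7 had at least 100 reads in both libraries, and many lie near an axis.

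Few of these contigs were well represented in both libraries. Of the 46, 7 had at least 100 reads in each library, against 35.5% of all contigs. By contrast, 20 had at least 100 reads in one library and fewer than 10 in the other, against 5.08% of all. Among these 20, 5 were on the ET side (1.10% of all contigs) and 15 on the SET side (3.98% of all). No read was counted in ET for 13 of the 46 (5.85% of all contigs), and none in SET for 3 (1.19% of all). These read limits were set after the values were seen. Contigs with high counts are called more easily, and among the 26186 contigs with at least 100 reads in a library 22.9% were higher in ET and 24.5% lower. Of the 40 Da-p36-type contigs in that class, 13 were higher and 26 lower, and 20 had fewer than 10 reads in the other library, against 9.30% of that class.

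The Av-p36 match contig_1468 led the ET side. It had 39925 reads in ET and 5 in SET, or 642 RPKM in ET and 0.0861 in SET, a ratio of 7454 (95% interval 3194 to 22957). By RPKM it stood at rank 182 of all contigs in ET. The second on that side, the Av-p36 match contig_237, was abundant in both libraries. It had 16581 reads in ET and 3725 in SET, or 592 RPKM in ET and 142 in SET, a ratio of 4.16 (4.01 to 4.31). At the engorged stage the levels per length of contig_1468 and contig_237 were close, while at the semi-engorged stage contig_237 was high and contig_1468 almost unread.

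The other contigs higher in ET stood well below these. The Da-p36 match contig_3105 had 2518 reads in ET and 877 in SET, or 79.5 RPKM in ET and 29.7 in SET, a ratio of 2.68 (2.48 to 2.90). The Av-p36 match contig_532 had 1827 reads in ET and 143 in SET, or 44.4 RPKM in ET and 3.72 in SET, a ratio of 11.9 (10.1 to 14.2). Apart from contig_1468, the ET side thus spans contigs read in both libraries and contigs with almost no SET read. The HL-p36 match contig_6349 had 1156 reads in ET and 0 in SET and was at least 360-fold higher, taking the floor of 3 reads. The Av-p36 match contig_8747 had 719 reads in ET and 0 in SET and was at least 224-fold higher. A pair with consecutive numbers, contig_17719 and contig_17720, both matching Av-p36, had 460 and 526 reads in ET and 0 and 1 in SET.

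The last 5 of the 13 were read in both libraries. The Da-p36 match contig_12324 had 865 reads in ET and 73 in SET, and the Da-p36 match contig_43939 had 493 in ET and 68 in SET. The Av-p36 matches contig_13463 and contig_12327 had 427 and 338 reads in ET and 41 and 104 in SET. The contig matching the da-p36 protein of Rhipicephalus pulchellus, contig_34858, had 208 reads in ET and 61 in SET, with a log2 fold of 1.11. It was the nearest to the threshold and fell to 0.93 when libraries were scaled to their median contig.

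On the other side, contig_5617, an Av-p36 match, was the most abundant Da-p36-type contig of SET. It had 35 reads in ET and 25863 in SET, or 0.736 RPKM in ET and 583 in SET, and was 792-fold lower in ET (569 to 1137). The Av-p36 match contig_2051 had 17 reads in ET and 18593 in SET, or 0.440 RPKM in ET and 516 in SET, and was 1172-fold lower (732 to 2012). Both reached levels per length in SET like those of contig_1468 and contig_237 in ET. By RPKM they stood at ranks 302 and 341 of all contigs in SET.

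Further Av-p36 matches followed. The contig contig_52479 had 113 reads in ET and 12353 in SET, or 3.25 RPKM in ET and 380 in SET, and was 117-fold lower in ET (97.3 to 142). The contig contig_37272 had 5 reads in ET and 9114 in SET, or 0.111 RPKM in ET and 218 in SET, and was 1953-fold lower (836 to 6015). The contig contig_9665 had 0 reads in ET and 6638 in SET and was at least 2370-fold lower. Of these, contig_52479 alone kept more than 100 ET reads. Among HL-p36 matches, contig_23466 was the highest of SET, with 5 reads in ET and 3412 in SET, or 0.272 RPKM in ET and 199 in SET.

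The other 22 contigs lower in ET had 0 to 123 ET reads and 71 to 3103 SET reads. At the top of this range were contig_50502 (Av-p36) with 0 ET and 3103 SET reads and contig_49740 (HL-p36) with 0 ET and 2651 SET reads. They were at least 1108-fold and at least 947-fold lower in ET. Some of the 22 had small folds, such as the Da-p36 match contig_12325, with 77 reads in ET and 239 in SET. The Av-p36 match contig_25456 had 74 in ET and 205 in SET. The fewest SET reads were those of contig_53782 (Av-p36), with 0 ET and 71 SET reads, at least 25.4-fold lower in ET. The Da-p36-like matches contig_15767 and contig_52987 had 34 and 4 ET reads and 206 and 241 SET reads.

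**Figure D2:**
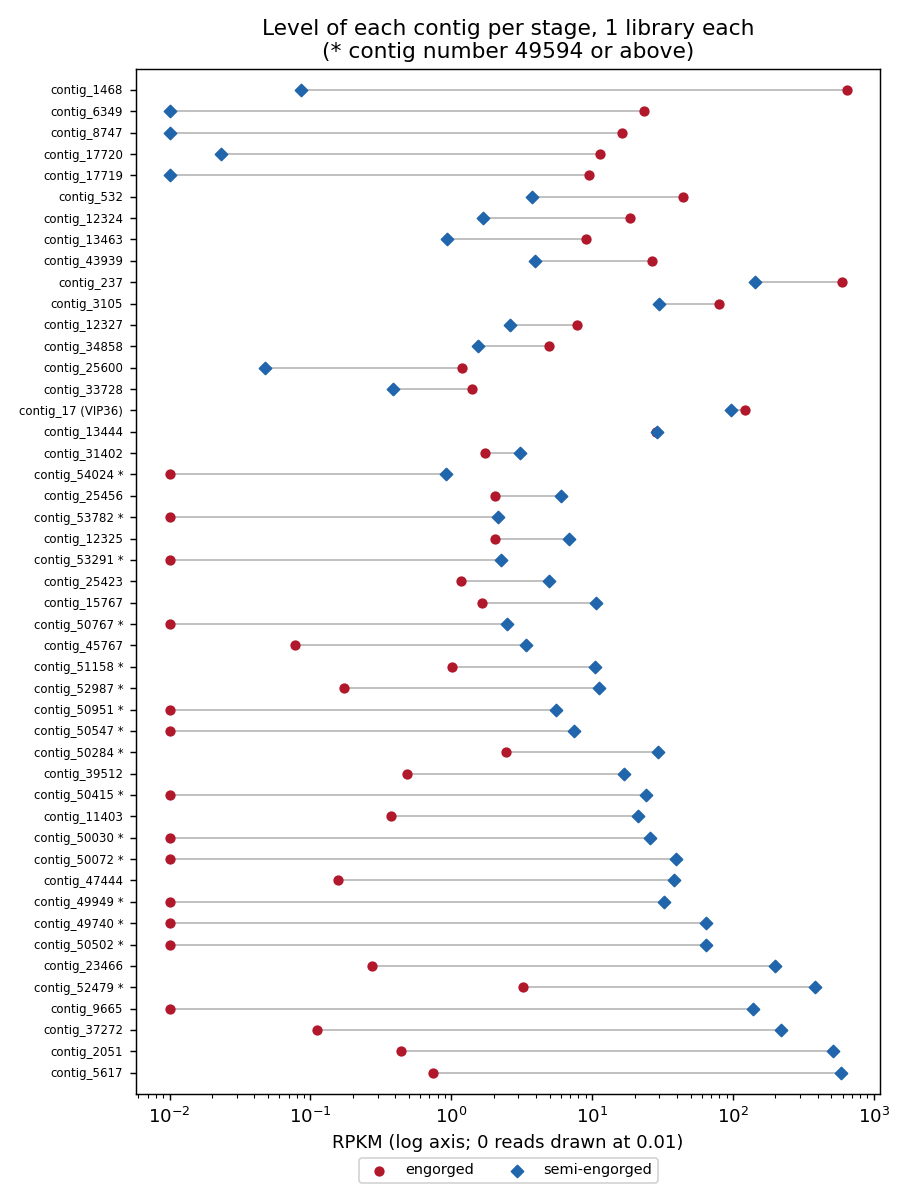
Level of each of the 47 contigs in RPKM on a log axis, with circles for ET and diamonds for SET, ordered by log2 fold from the highest in ET at the top to the lowest. Contigs without a read are drawn at 0.01, and a star marks contig numbers of 49594 and above. At the top contig_1468 stands at 642 RPKM in ET and 0.0861 RPKM in SET, and at the bottom contig_5617 at 0.736 RPKM in ET and 583 RPKM in SET.

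A single abundant Da-p36-type contig had like levels in both libraries. The Av-p36 match contig_13444 had 1430 reads in ET and 1353 in SET, or 28.5 RPKM in ET and 28.9 in SET, a ratio of 0.987 (0.915 to 1.06). The other 4 contigs in neither class had at most 54 reads in either library, so the added 1 CPM holds their folds down. Among them contig_25600 (HL-p36) had 54 reads in ET and 2 in SET, a ratio of 25.2 (6.65 to 213), and contig_54024 (HL-p36) had 0 in ET and 34 in SET. The contigs contig_33728 (Av-p36) and contig_31402 (Da-p36) had 31 and 32 ET reads and 8 and 53 SET reads. The VIP36 lectin contig_17, a cargo receptor for glycoproteins of the secretory pathway, had 13817 reads in ET and 10330 in SET, or 122 RPKM in ET and 97.4 in SET, a ratio of 1.25 (1.22 to 1.28).

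By best match, the 46 contigs shared 5 proteins of 4 tick species, none of them Haemaphysalis flava. Of 29 contigs matching Av-p36, 8 were higher in ET and 19 lower, and their sums were 1083 CPM in ET and 1647 CPM in SET. Of 8 contigs matching HL-p36, from the same tick genus, 1 was higher and 5 were lower, with sums of 21.3 CPM in ET and 158.6 CPM in SET, a ratio of 0.134 (0.126 to 0.142). The 6 contigs matching Da-p36 of Dermacentor andersoni went the other way in sum, with 3 higher and 2 lower and sums of 69.8 CPM in ET and 28.1 CPM in SET, a ratio of 2.48 (2.34 to 2.63). Most of that sum was contig_3105. Single contigs also gave most ET reads of the other 2 groups. These were contig_6349 with 1156 of 1232 HL-p36 reads and contig_1468 with 39925 of 62708 Av-p36 reads. The 2 contigs matching the Da-p36-like protein of Amblyomma variegatum were both lower, with sums of 0.656 CPM in ET and 8.27 CPM in SET. Contigs of 1 best match share a target and are not replicates, and close copies or variants could have split reads between them.

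The make-up of the family reads differed between the libraries. In ET contig_1468 took 58.5% of the reads of the 46 contigs, and the top 2 contigs took 82.8%. In SET the top contig, contig_5617, took 26.0% and the top 2 took 44.6%. To reach 90% of the family reads took 5 contigs in ET and 12 in SET. At least 1000 reads were counted for 6 contigs in ET and 14 in SET. The inverse Simpson index, the number of equally abundant contigs that would give the same concentration, was 2.47 in ET and 7.35 in SET.

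**Figure D3:**
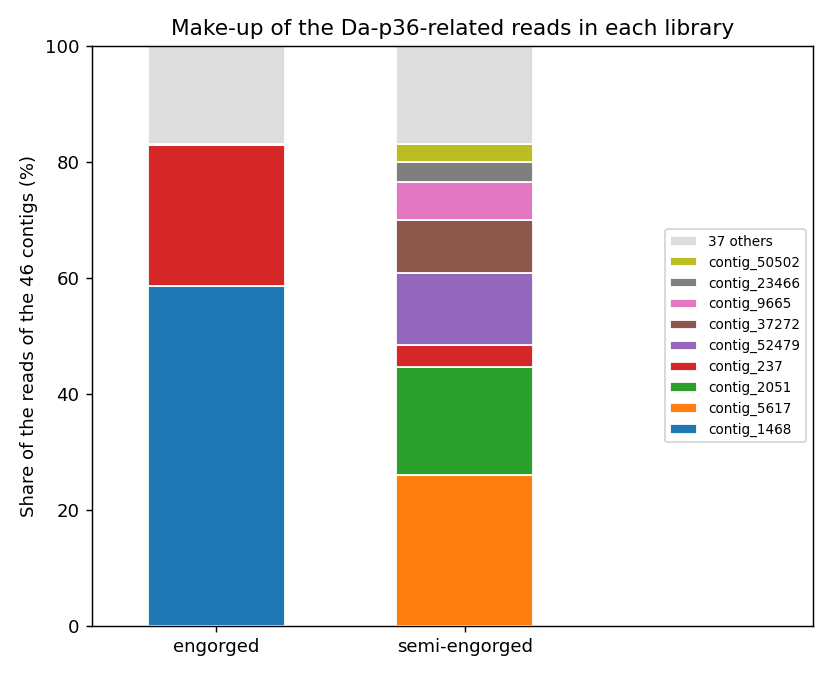
Stacked bars give each contig's share, in percent, of the reads of the 46 Da-p36-type contigs in ET and in SET. The 9 contigs with the highest count in either library are coloured and the others are grey. In the ET bar contig_1468 takes 58.5%, and in the SET bar contig_5617 takes 26.0%.

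Contig numbers moved with the direction of these differences. Contigs numbered 49594 and above took 2664 CPM in ET and 73541 CPM in SET. This limit, set after the values were seen, is where at least 50% of 100 consecutive contigs had no ET read. It was thus drawn from the ET counts compared here, so low ET levels above it follow in part from the choice. Of the 46 Da-p36-type contigs 16 carry such numbers, and 15 of these were lower in ET and 0 higher, where 40.1% and 0.497% of the 4226 such contigs past the filter were. They summed to 4.82 CPM in ET and 464.6 CPM in SET. By best match, 11 of these 16 were Av-p36, 4 HL-p36, 1 the Da-p36-like protein and 0 Da-p36 of Dermacentor andersoni. No ET read was counted for 12 of these 16, against 57.1% of all such contigs, and they make up 12 of the 13 family contigs without one. Among the 30 contigs with lower numbers, 13 were higher in ET and 13 lower, where 14.3% and 13.1% of the 43739 lower-numbered contigs past the filter were. Their median log2 fold was 0.20, against 0.040 over all lower-numbered contigs, and their sums were 1174 CPM in ET and 1378 CPM in SET. By count the lower-numbered Da-p36-type contigs were equal on both sides, a balance that follows in part from a limit set on ET reads. They include contig_5617, contig_2051, contig_37272 and contig_9665 on one side and contig_1468 and contig_237 on the other. Of these 30, 10 had at least 100 reads in one library and fewer than 10 in the other, against 3.28% of all lower-numbered contigs. The meaning of the numbering is not stated, and its part in the differences was not tested.

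Contig lengths, computed from reads and RPKM, lay between 318 and 1075 bases, the median being 765. Of 8 contigs shorter than 500 bases 6 were called, and of the 38 longer ones 35. Over all contigs past the filter 13.0% were called higher in ET and 15.5% lower. Shares by length were not computed for all contigs. The abundant contig_1468 is the longest at 1075 bases, contig_5617 has 821 and contig_237 has 484.

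A wide spread in both directions was shared with other secreted salivary families. Lipocalins and histamine-binding proteins, which bind small host mediators, had 38 of 148 contigs higher in ET and 78 lower, a median log2 fold of -1.12 and 41 contigs with no ET read. Contigs named as Kunitz-type inhibitors, bilaris or trilaris, which block proteases, had 17 of 52 higher and 24 lower, a median of -0.90 and 15 with no ET read. The shares called were 28.3% higher and 60.9% lower for the Da-p36-type contigs, 25.7% and 52.7% for lipocalins and 32.7% and 46.2% for Kunitz-type contigs. No test between families was made. The summed ratio was 0.639 for the Da-p36-type contigs, 0.386 for lipocalins and 1.31 for Kunitz-type contigs. Among lower contig numbers, lipocalins counted 38 higher and 32 lower of 94 and Kunitz-type contigs 15 and 12 of 35.

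**Figure D4:**
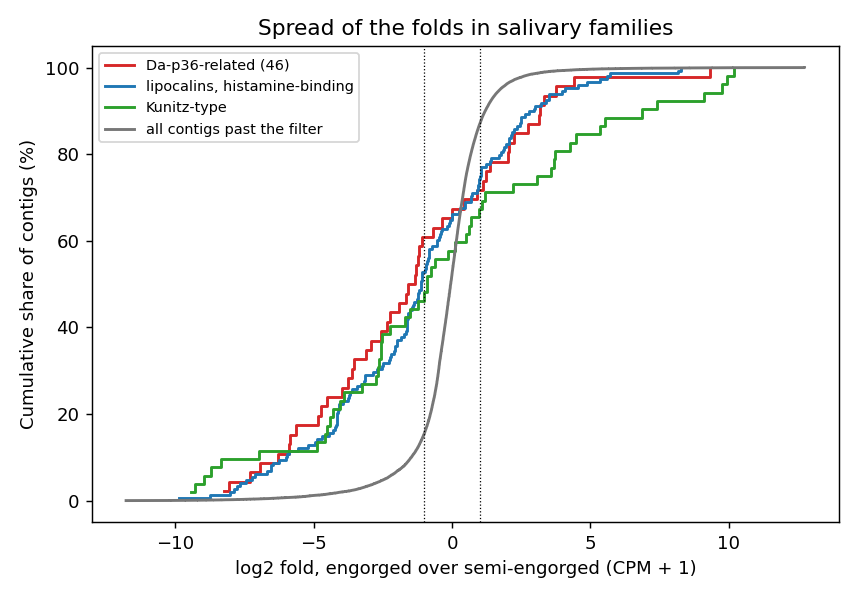
Cumulative share of contigs, in percent, by log2 fold of ET over SET, for the 46 Da-p36-type contigs, lipocalins, Kunitz-type contigs and all contigs past the filter. Dotted lines mark a log2 fold of -1 and 1. The 3 salivary curves are flat where the curve of all contigs is steep, with medians of -1.47, -1.12 and -0.90 against -0.049.

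For each member picked by abundance or fold, the contigs nearest in level were found by distance in log2(RPKM + 1) over the 2 libraries. Only contigs with an informative protein name and outside the Da-p36-related contigs were searched. Undescribed contigs and other Da-p36-related contigs can therefore lie nearer than those named. Nearest to contig_1468 were a basic tail protein (contig_941, 568 RPKM in ET and 0 in SET) and the bilaris contigs contig_2615 and contig_1097. Nearest to contig_5617 were a protease inhibitor (contig_49624, or 0.481 RPKM in ET and 575 in SET), a metalloprotease (contig_14571) and contig_26107, named after tissue factor pathway inhibitor. The last 2 were less close, at distances of 0.75 and 0.81 against 0.23 for contig_49624. Nearest to contig_2051 were contig_49624, a salivary lipocalin (contig_49683) and contig_26107, and nearest to contig_37272 were the metalloproteases contig_34056 and contig_14065 and the lipocalin contig_49633. Nearest to contig_52479 were a cement-like antigen (contig_49675) and the metalloproteases contig_25258 and contig_142. Nearest to contig_237 were a basic tail protein (contig_24, or 522 RPKM in ET and 134 in SET), a group I salivary lipocalin (contig_13417) and a ubiquitin ligase complex contig (contig_111). The distance was 0.66 for contig_111, against 0.20 for contig_24.

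Nearest to contig_6349 were a metalloprotease (contig_15831), a member of a small tick secreted family (contig_4880) and a secreted peptide (contig_6827). Nearest to contig_8747 were a metalloprotease (contig_4993), a gamma-glutamyltransferase (contig_18249) and a methyltransferase (contig_18184). Nearest to contig_532 were membrane transporters (contig_591, contig_6166) and an oxysterol binding protein (contig_5796). Nearest to contig_3105 were a ubiquitin ligase (contig_3173), an endosomal membrane protein (contig_2824) and a sorting nexin (contig_1963). Likeness over 2 libraries is a match of levels only.

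Other tick proteins named for effects on host immunity gave 19 contigs, of which 4 were higher in ET and 6 lower, where 13.0% and 15.5% of all contigs were, with a median log2 fold of -0.37. Among their 17 contigs with lower numbers, 4 were higher and 4 lower, with a median of -0.27. Leading their serotonin and histamine-binding proteins was contig_1638, also the largest fold of the list, with 3167 reads in ET and 3 in SET, a ratio of 985 (337 to 4781). Of the 4 contigs with histamine-binding names, 2 were higher and 2 in neither class. Of 7 evasins, which bind chemokines, 2 were higher and 3 lower, and the most abundant, contig_14707, had 671 reads in ET and 138 in SET, a ratio of 4.54 (3.77 to 5.49). Evasins, like the Da-p36-type contigs, thus stood on both sides.

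On the SET side stood 1 of 2 contigs named calreticulin, a calcium-binding chaperone also found in tick saliva. The other was in neither class. The lower one, contig_5711, had 12003 reads in ET and 154256 in SET and was 13.8-fold lower in ET (13.5 to 14.0). Longistatin (contig_5568), a plasminogen activator known from Haemaphysalis longicornis, had 1223 reads in ET and 7010 in SET and was 6.14-fold lower (5.78 to 6.53). Cystatin-2 (contig_43533), an inhibitor of cysteine proteases, had 105 reads in ET and 568 in SET and was 5.80-fold lower (4.70 to 7.21). Of the 3 cystatin contigs, the other 2 were in neither class. Macrophage migration inhibitory factor (contig_5532), a homologue of a host cytokine, had 971 reads in ET and 1497 in SET, a ratio of 0.605 (0.558 to 0.657), and was in neither class. No contig was matched by the names Salp15, Salp20, japanin, Iris, prostaglandin synthase, hyaluronidase or the remaining names of the list.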

How the data were processed

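Polyadenylated RNA of salivary glands was sequenced, with 1 library per stage (ET engorged, SET semi-engorged). The authors deposited read counts and RPKM values for 54357 contigs, per the file headers. The submitters' processing notes name CASAVA 1.8, TopHat and Cufflinks without a role; for assembler, protein search and read counter the sources used here name none. Reads over RPKM and library total gave a whole contig length within 0.000232 bases.

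The members and lists were chosen with earlier results of these data known. Members were taken by name with pandas 2.3.3. CPM used column totals, and contigs with at least 20 reads over both libraries were kept. Intervals came from scipy 1.17.1 and, with 1 library per stage, cover counting error only. They treat each read as independent, although the reads had no molecular identifiers, so they can be too narrow. The 3-read floor was 0.0518 CPM for ET and 0.0555 CPM for SET. The naming rule took the 5 most abundant members per library and the 3 largest folds per direction with at least 100 reads, 3 neighbours of each, and the most abundant contig of each immune name; other contigs were named after their values were seen. Alternatives used other pseudocounts, filters, thresholds, TMM factors from edgeR 4.0.16 and RPKM. The calculations were tested on simulated data. No sequence is printed, as none was used here.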

Additional observations from a re-analysis of the deposited data

How the results depend on the processing

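No paired analysis was possible because each stage has 1 library, and for the same reason no replicate could be left out. The summed ratio of 0.697 stayed below 1 in each alternative run: 0.592 with libraries scaled to their median contig (a shift of 0.23 in log2), 0.814 with totals without the 50 most abundant contigs, 0.595 from RPKM, 0.358 without contig_1468, 0.911 without contig_5617, 0.639 without the VIP36 lectin and 0.900 without contigs numbered 49594 and above. The counts of 13 higher and 28 lower became 7 and 16 with 10 CPM added. They became 3 and 2 when only the most-read contig of each best-matching protein was kept. That left 1 contig for each of the 5 proteins, beside the lectin. Without the upper contig numbers the counts became 13 and 13. The median log2 fold then turned from -1.35 over the 47 contigs to 0.32 over those left. As that limit was drawn from ET reads, leaving out the upper numbers removes contigs low in ET. The counts were 12 and 28 with median scaling and 14 and 28 with totals without the 50 most abundant contigs. Over all contigs, 6257 higher and 7421 lower became 10956 and 15014 with 0.1 CPM added, 2020 and 2510 with 10 CPM, 1763 and 3221 at a log2 fold of 2, and 11952 and 16063 with counts of 0 set to 3 reads. With totals without the 50 most abundant contigs they were 8719 and 7823, so the larger side changed. The immune list's 4 and 6 became 2 and 2 with 10 CPM added, and its higher count was 2 at a log2 fold of 2. The 41 called members kept their sign in the 7 alternatives of scaling, unit, pseudocount and floor, and 40 or 41 kept their class except with 10 CPM, where 23 did. The cause of these shifts was not tested. Added after the values were seen were the settings on contig numbers, the lectin and counts of 0. Depth limits contigs below 1 CPM in both libraries, which cannot be called.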

Other observations

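Contigs with neighbouring numbers did not always share a direction. The Da-p36 matches contig_12324 and contig_12325 carry consecutive numbers, and contig_12324 had 865 reads in ET and 73 in SET, whereas contig_12325 had 77 in ET and 239 in SET. The Av-p36 match contig_12327 had 338 reads in ET and 104 in SET. The pair contig_17719 and contig_17720 lay on the ET side together, with log2 folds of 3.16 and 3.31.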
